A study of Homo sapiens with 11 samples.

Results

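The unfolded protein response is the set of signals that a cell sends from the endoplasmic reticulum (ER) when unfolded proteins collect there. XBP1 and the genes that sense such proteins or release the transcription factors of the response were described in HEK293T, a human embryonic kidney line. The 9 genes were taken by name from the deposited table of 58735 genes: XBP1, ERN1, EIF2AK3, ATF6, ATF6B, CREB3, CREB3L2, MBTPS1 and MBTPS2. All 9 were found once, and all 9 passed the filter on low counts, which 18368 genes passed. Messenger RNA was sequenced in 11 libraries of 4 groups, which the labels give as control siRNA (n = 3), siNAE1 (n = 3), siUBE2M (n = 3) and siURM1 (n = 2). The study's methods give doses of 50 nM for siNAE1, 70 nM for siUBE2M and 60 nM for siURM1, with harvest at 48 h. The study asked which genes depend on URM1, a ubiquitin-like protein, and on NAE1 and UBE2M, which it treats as enzymes that act on URM1. NAE1 and UBE2M are otherwise known as enzymes of the ubiquitin-like protein NEDD8. The labels give the control cells as treated with a control siRNA, and the study's methods include a negative control siRNA, but a supplementary legend of the study names the same libraries HKWT, so whether they were transfected is uncertain. The siRNA dose differed between the knockdowns and was confounded with the target. The study lists no second siRNA for any target, so effects of the target and of the siRNA sequence itself cannot be told apart. Each knockdown was compared with the same 3 control libraries, so the 3 comparisons with control are not independent.

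Total counts per library ranged from 11733163 to 16321391. The labels call the libraries of each group biological replicates, without saying how the cultures were kept apart, and the p-values measure the spread between these libraries. The targeted messenger RNAs were lower in their own knockdowns, by log2 fold changes of -1.36 for NAE1, -3.98 for UBE2M and -1.80 for URM1. They also moved, by less, in the other knockdowns. NAE1 rose in siUBE2M (0.28) and siURM1 (0.38), and UBE2M fell in siNAE1 (-0.16) and siURM1 (-0.37). URM1 rose in siNAE1 (0.28) and had -0.16 in siUBE2M (edgeR, adjusted p = 0.096). Of the markers of the line, VIM, KRT8, KRT18, NEFM and NEFL each had at least 179 counts in every library. The markers of other tissues PTPRC, CD3E, ALB and INS had at most 9 counts in any library.

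Of the sensors of the ER membrane, IRE1 (gene ERN1) is a kinase and nuclease that removes a short intron from XBP1 messenger RNA, after which the message encodes the active transcription factor XBP1s. PERK (gene EIF2AK3) is a kinase that slows translation and favours the translation of ATF4, while ATF6 moves to the Golgi, where the site-1 protease (gene MBTPS1) and the site-2 protease (gene MBTPS2) cut it and free its transcription factor part. ATF6B is a close relative of ATF6, and CREB3 and CREB3L2 are membrane-bound transcription factors released by cleavage in the same way. XBP1 is itself a known target of ATF6. Counts per gene do not separate spliced from unspliced XBP1 messenger RNA, nor uncut from cut ATF6, so the values below are levels of messenger RNA and not of the activity of a sensor. A lower level in a bulk library can come from fewer cells with the message or from less of it per cell, and these cannot be told apart.

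XBP1 was lower in all 3 knockdowns, at 35.3% to 41.9% of its control level, and was the only one of the 9 genes that passed both thresholds of the study in each of them. ERN1, CREB3L2 and MBTPS2 also fell in all 3, and ATF6B rose in all 3. ATF6 fell a little in siNAE1 and siUBE2M, but to 34.8% of control in siURM1. MBTPS1 fell in siNAE1 and rose in siUBE2M and siURM1. EIF2AK3 and CREB3 changed in 1 knockdown each, siURM1 for EIF2AK3 and siUBE2M for CREB3. Throughout, a gene was said to have changed at a Benjamini-Hochberg adjusted p under 0.05 in edgeR's quasi-likelihood test over all 18368 genes, and was called a differentially expressed gene (DEG) where the log2 fold change was also at least 1 in size.

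FPKM are fragments scaled to gene length and to the size of a library, a scale on which genes of different length can be compared. The deposited values did not follow the total counts of the libraries alone, so another measure of library size lies behind them. In FPKM, XBP1 stood far above the other 8 genes in control cells. Its level was 163 ± 4.40 FPKM (SD, n = 3), above that of 99.2% of the tested genes. CREB3 was next at 23.9 ± 0.988 FPKM in the same libraries. CREB3L2 at 16.0 ± 1.41, ATF6B at 15.6 ± 0.410 and MBTPS1 at 14.6 ± 0.225 FPKM lay close together, and the range of CREB3L2 (14.5 to 17.3 FPKM) overlapped those of ATF6B (15.2 to 16.0 FPKM) and MBTPS1 (14.3 to 14.7 FPKM). ATF6 followed at 11.4 ± 0.406 FPKM and MBTPS2 at 8.37 ± 0.976 FPKM. The kinase sensors were the least abundant, with 3.89 ± 0.263 FPKM for EIF2AK3 and 3.87 ± 0.178 FPKM for ERN1, a pair that did not differ beyond its spread. XBP1 kept the highest level of the 9 in each knockdown, with 60.7 ± 0.722 FPKM in siNAE1 (n = 3), 68.0 ± 3.74 in siUBE2M (n = 3) and 57.4 ± 1.40 in siURM1 (n = 2).

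**Figure D1:**
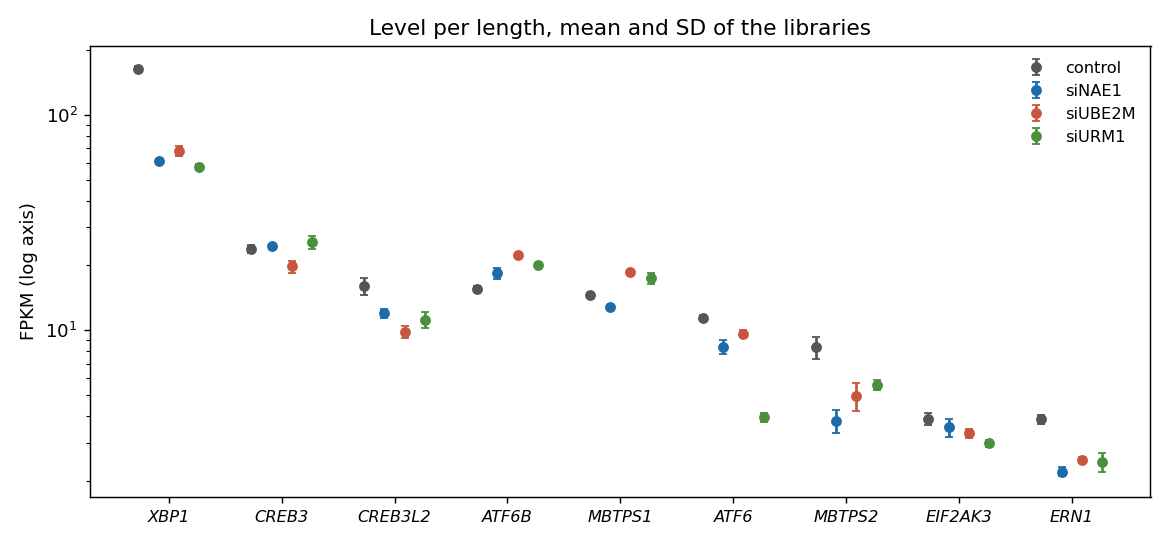
Mean level of each of the 9 genes in FPKM on a log axis in the 4 groups, with error bars of 1 SD over the libraries (n = 3, and n = 2 for siURM1). XBP1 lies above the other genes in every group, and ATF6 drops from 11.4 FPKM in control to 3.96 FPKM in siURM1.

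The region before the start of XBP1 is shown because it holds the motif of the response, the ER stress response element (ERSE). The ERSE, the letters CCAAT and CCACG with 9 bases between them, is bound by ATF6 and XBP1s together with NF-Y. In the 250 bases upstream of the outermost RefSeq start (GRCh38.p14, chr22:28800570-28800819, minus strand), written 5′ to 3′ with the ERSE letters in capitals, the match lies 52 to 34 bases before the start. The deposited gene XBP1 (ENSG00000100219, GRCh38, chromosome 22, 28794555 to 28800597, minus strand) begins within this window, so its last bases are in the gene as the deposited table has it.
XBP1: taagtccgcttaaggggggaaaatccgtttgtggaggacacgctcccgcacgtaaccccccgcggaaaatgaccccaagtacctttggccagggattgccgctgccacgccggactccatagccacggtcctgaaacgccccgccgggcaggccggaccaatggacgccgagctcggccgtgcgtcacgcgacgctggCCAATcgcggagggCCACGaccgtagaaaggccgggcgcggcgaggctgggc

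The region of CREB3L2 is shown because it is the only other one of the 9 with a match to a motif searched. It holds the cyclic AMP response element TGACGTCA, which is the same on both strands, 179 to 172 bases before the outermost of its RefSeq starts (GRCh38.p14, chr7:138002087-138002336, minus strand).
CREB3L2: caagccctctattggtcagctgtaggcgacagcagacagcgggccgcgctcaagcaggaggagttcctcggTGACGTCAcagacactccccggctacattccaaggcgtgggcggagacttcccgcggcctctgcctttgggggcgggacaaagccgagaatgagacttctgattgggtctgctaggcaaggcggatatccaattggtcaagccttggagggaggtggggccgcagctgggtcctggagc

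All 9 genes matched a RefSeq window. XBP1 and CREB3L2 each had a second window at another RefSeq start (chr22:28800078-28800327 and chr7:137932989-137933238, both on the minus strand), neither of which held a motif, and 5 motifs were searched on both strands in their 250 upstream bases. The other 3 motifs were ERSE-II (ATTGG, 1 base, CCACG), the core of the unfolded protein response element (TGACGTGG) and the element bound by ATF4 (TGATG, 1 base, AA). Of the 9 genes, 7 held none of the 5 motifs. Of all 35116 windows of this length, 0.0740% held an ERSE, 0.0513% an ERSE-II, 1.65% the cyclic AMP response element, 0.612% the unfolded protein response element core and 3.14% the ATF4 element. A match is a match of letters and not a measured binding site, and no match says only that these letters are not in this window.

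Within the list of ER chaperones and folding enzymes, 6 of the 23 genes with a window (26.1%) held an ERSE. Their sites are shown beside that of XBP1 so that their changes can be set against those of XBP1, each read 5′ to 3′ on the strand that holds it, with the bases of the motif in capitals. That of CANX is a single site seen from 2 RefSeq starts, 151 and 189 bases before them.
XBP1: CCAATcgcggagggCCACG
HSPA5: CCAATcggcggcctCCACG
HSP90B1: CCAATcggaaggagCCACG
HSP90B1, opposite strand: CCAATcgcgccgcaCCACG
PDIA6: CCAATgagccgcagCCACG
CANX: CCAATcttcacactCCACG
CALR, opposite strand: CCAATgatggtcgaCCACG
CRELD2, opposite strand: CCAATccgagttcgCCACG

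None of these 6 genes fell in siNAE1, while 4 fell in siUBE2M and 3 in siURM1, each by a smaller log2 fold change than XBP1, where 27.1%, 22.6% and 20.8% of all tested genes fell. In siNAE1 5 of the 6 rose, in siUBE2M 1 and in siURM1 2, where 27.6%, 22.7% and 20.8% of all tested genes rose. In siNAE1, where XBP1 had a log2 fold change of -1.42 against control, HSPA5 (0.48), HSP90B1 (0.42), PDIA6 (0.49), CALR (0.84) and CRELD2 (0.24) rose, and CANX had 0.08 (edgeR, adjusted p = 0.23). In siUBE2M, where XBP1 had -1.26, HSPA5 (-0.43), HSP90B1 (-0.23), CANX (-0.32) and CRELD2 (-0.23) fell and CALR rose (0.36), while PDIA6 had 0.13 (edgeR, adjusted p = 0.097). In siURM1, where XBP1 had -1.50, HSPA5 (-0.35), HSP90B1 (-0.31) and CANX (-0.19) fell and CALR (0.66) and PDIA6 (0.19) rose. CRELD2 had -0.14 there (edgeR, adjusted p = 0.25). None of the 6 genes reached a log2 fold change of 1 in size in any knockdown. CANX, CRELD2 and PDIA6 were named for the motif, outside the rule for named genes.

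The sensor ERN1, the nuclease that acts on XBP1 messenger RNA (ENSG00000178607, chromosome 17, 64039142 to 64130819, minus strand), had 42.9, 40.2 and 44.2 CPM (counts scaled to library size) in the control libraries. It had 25.5, 24.5 and 23.1 CPM in siNAE1, 28.0, 28.4 and 26.5 CPM in siUBE2M, and 28.7 and 24.9 CPM in siURM1. Every knockdown library lay below every control library, and the siURM1 libraries overlapped those of siNAE1 and siUBE2M. The log2 fold change against control was -0.80 ± 0.09 (SE; edgeR, adjusted p = 5.8e-09) in siNAE1. It was -0.62 ± 0.09 (adjusted p = 8.1e-07) in siUBE2M and -0.66 ± 0.10 (adjusted p = 2.4e-06) in siURM1. The knockdowns were not told apart for ERN1, with a largest difference of -0.18 ± 0.09 between siNAE1 and siUBE2M (edgeR, adjusted p = 0.12).

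EIF2AK3, the gene of PERK (ENSG00000172071, chromosome 2, 88556741 to 88627576, minus strand), passed the test in siURM1 only. Its levels were 20.5, 20.5 and 23.0 CPM in control, 18.3, 21.7 and 18.7 CPM in siNAE1, 17.4, 18.6 and 19.0 CPM in siUBE2M, and 16.8 and 15.9 CPM in siURM1. The siNAE1 libraries overlapped the control, the siUBE2M libraries lay just under it, and the siURM1 libraries were the lowest. The log2 fold change in siURM1 was -0.38 ± 0.12 (SE; edgeR, adjusted p = 0.0099). It was -0.12 ± 0.10 (adjusted p = 0.34) in siNAE1 and -0.22 ± 0.10 (adjusted p = 0.085) in siUBE2M. The call in siURM1 was lost without control replicate 3 (-0.31, edgeR, adjusted p = 0.056) and without siURM1 replicate 2 (-0.34, adjusted p = 0.091), and over all alternatives its adjusted p ran from 0.0056 to 0.091. Between knockdowns no difference of EIF2AK3 passed the test, with 0.10 ± 0.11 (edgeR, adjusted p = 0.48) for siNAE1 over siUBE2M, 0.26 ± 0.12 (adjusted p = 0.091) for siNAE1 over siURM1 and 0.16 ± 0.12 (adjusted p = 0.33) for siUBE2M over siURM1. The gene AC062029.1 overlaps EIF2AK3 on the opposite strand, had 10 to 100 counts per library and had log2 fold changes of -1.79 in siNAE1 (adjusted p = 9.0e-06), -0.83 in siUBE2M (adjusted p = 0.013) and -0.12 in siURM1 (adjusted p = 0.77).

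ATF6 (ENSG00000118217, chromosome 1, 161766294 to 161964070, plus strand) was the gene of the 9 that most separated siURM1 from the other knockdowns. It had 89.2, 88.2 and 94.2 CPM in control, 70.0, 69.6 and 61.4 CPM in siNAE1, 80.2, 76.7 and 74.3 CPM in siUBE2M, and 32.6 and 30.4 CPM in siURM1. No groups overlapped, and both siURM1 libraries lay well under the lowest library of any other group. The log2 fold change was -1.52 ± 0.09 (SE; edgeR, adjusted p = 5.3e-15) in siURM1, which was called a DEG, and ran from -1.57 to -1.47 over all alternatives. It was -0.43 ± 0.07 (adjusted p = 6.0e-06) in siNAE1 and -0.23 ± 0.07 (adjusted p = 0.0079) in siUBE2M. Compared directly, ATF6 was 2.13-fold higher in siNAE1 than in siURM1 (log2 difference 1.09 ± 0.09, edgeR, adjusted p = 1.8e-11) and 2.44-fold higher in siUBE2M than in siURM1 (1.29 ± 0.09, adjusted p = 3.7e-13). The call in siUBE2M was lost without control replicate 3 (-0.20, adjusted p = 0.05, highest of a range from 0.0034). Between siNAE1 and siUBE2M the log2 difference was -0.20 ± 0.07 (edgeR, adjusted p = 0.026), which was lost without siNAE1 replicate 3 (-0.13, adjusted p = 0.17), without siUBE2M replicate 1 (-0.18, adjusted p = 0.098) and without the filter on low counts (adjusted p = 0.05), over a range from 0.012 to 0.17.

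ATF6B (ENSG00000213676, chromosome 6, 32115264 to 32128253, minus strand) moved the other way. Its levels were 58.9, 56.5 and 55.6 CPM in control, 71.8, 65.1 and 65.7 CPM in siNAE1, 80.5, 84.6 and 81.3 CPM in siUBE2M, and 73.1 and 73.3 CPM in siURM1. Every knockdown library was above every control library, and the siUBE2M libraries were the highest. The log2 fold changes were 0.24 ± 0.07 (SE; edgeR, adjusted p = 0.0041) in siNAE1, 0.53 ± 0.07 (adjusted p = 2.1e-07) in siUBE2M and 0.36 ± 0.08 (adjusted p = 3.2e-04) in siURM1. ATF6B was lower in siNAE1 than in siUBE2M by a log2 difference of -0.28 ± 0.07 (edgeR, adjusted p = 0.0013), while neither differed from siURM1 past the threshold. TNXB, which overlaps ATF6B on the same strand, had 36 to 179 counts per library and had log2 fold changes of 1.74 in siUBE2M (adjusted p = 1.5e-09), -0.04 in siNAE1 (adjusted p = 0.90) and -0.01 in siURM1 (adjusted p = 0.98).

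Of the proteases that cut ATF6 and its relatives, MBTPS1 (ENSG00000140943, chromosome 16, 84053761 to 84116906, minus strand) had 153, 147 and 152 CPM in control. It had 134, 131 and 132 CPM in siNAE1, 190, 199 and 190 CPM in siUBE2M, and 187 and 172 CPM in siURM1. The siNAE1 libraries lay below every control library and the libraries of the other two knockdowns lay above. The log2 fold changes were -0.19 ± 0.06 (SE; edgeR, adjusted p = 0.0092) in siNAE1, 0.36 ± 0.06 (adjusted p = 7.9e-06) in siUBE2M and 0.25 ± 0.07 (adjusted p = 0.0022) in siURM1. The last of these was lost without siURM1 replicate 1 (0.20, edgeR, adjusted p = 0.074, highest of a range from 1.9e-04). Tested directly, MBTPS1 was lower in siNAE1 than in siUBE2M (-0.55 ± 0.06, edgeR, adjusted p = 6.2e-09) and lower than in siURM1 (-0.44 ± 0.07, adjusted p = 2.7e-06).

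MBTPS2 (ENSG00000012174, chromosome X, 21839636 to 21885424, plus strand), the protease that makes the second cut, fell in every knockdown. It had 71.9, 68.9 and 85.4 CPM in control, 37.4, 36.2 and 29.8 CPM in siNAE1, 50.0, 47.2 and 37.4 CPM in siUBE2M, and 48.6 and 52.3 CPM in siURM1. Every knockdown library was below every control library, and control replicate 3 was the highest. The log2 fold change was -1.12 ± 0.10 (SE; edgeR, adjusted p = 3.2e-11) in siNAE1, which was called a DEG and ran from -1.18 to -1.02 over all alternatives. It was -0.75 ± 0.10 (adjusted p = 1.3e-07) in siUBE2M and -0.58 ± 0.11 (adjusted p = 5.3e-05) in siURM1. Under edgeR's glmTreat, a test for a log2 fold change larger than 1, MBTPS2 was not called in siNAE1. The level in siNAE1 was lower than in siUBE2M by -0.38 ± 0.10 (edgeR, adjusted p = 0.0032) and lower than in siURM1 by -0.54 ± 0.11 (adjusted p = 2.1e-04). YY2, which overlaps MBTPS2 on the same strand, had 30 to 155 counts per library and had log2 fold changes of -0.60 in siNAE1 (adjusted p = 0.0028), -1.79 in siUBE2M (adjusted p = 1.5e-09) and -1.37 in siURM1 (adjusted p = 1.3e-06).

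Of the relatives that are cut in the same way, CREB3L2, a factor known from secretory cells and cartilage (ENSG00000182158, chromosome 7, 137874979 to 138002067, minus strand), fell in every knockdown. It had 144, 128 and 153 CPM in control, 111, 109 and 101 CPM in siNAE1, 93.9, 87.5 and 82.0 CPM in siUBE2M, and 105 and 93.2 CPM in siURM1. The lowest control library was above the highest knockdown library, and siUBE2M held the lowest values. The log2 fold changes were -0.41 ± 0.07 (SE; edgeR, adjusted p = 1.8e-05) in siNAE1, -0.69 ± 0.07 (adjusted p = 2.9e-09) in siUBE2M and -0.52 ± 0.08 (adjusted p = 5.4e-06) in siURM1. The level was higher in siNAE1 than in siUBE2M by 0.29 ± 0.07 (edgeR, adjusted p = 0.0021).

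CREB3 (ENSG00000107175, chromosome 9, 35732335 to 35737004, plus strand) had 44.2, 45.8 and 47.7 CPM in control, 45.9, 48.1 and 47.6 CPM in siNAE1, 36.7, 36.8 and 40.7 CPM in siUBE2M, and 51.6 and 46.5 CPM in siURM1. The siUBE2M libraries lay below all others, and the siNAE1 and siURM1 libraries overlapped the control. The log2 fold change was -0.27 ± 0.08 (SE; edgeR, adjusted p = 0.0063) in siUBE2M. It was 0.04 ± 0.08 (adjusted p = 0.69) in siNAE1 and 0.10 ± 0.09 (adjusted p = 0.39) in siURM1. CREB3 was higher in siNAE1 than in siUBE2M by 0.31 ± 0.08 (edgeR, adjusted p = 0.0021) and lower in siUBE2M than in siURM1 by -0.37 ± 0.09 (adjusted p = 0.0014), and the second call was lost without siURM1 replicate 1 (-0.29, adjusted p = 0.058, highest of a range from 5.5e-04). CREB3 overlaps TLN1 (2868 to 4280 counts per library) and GBA2 (1444 to 2134 counts) on the opposite strand, and the sources used here do not say if fragments were assigned by strand. In siUBE2M, where CREB3 fell, GBA2 rose by 0.33 (edgeR, adjusted p = 6.6e-05) and TLN1 had 0.15 (adjusted p = 0.065).

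XBP1, the transcription factor that IRE1 switches on, had 485, 498 and 508 CPM in control, 185, 189 and 185 CPM in siNAE1, 203, 201 and 221 CPM in siUBE2M, and 172 and 178 CPM in siURM1. The highest knockdown library, siUBE2M replicate 3, was below the lowest control library. The log2 fold changes were -1.42 ± 0.06 (SE; edgeR, adjusted p = 2.8e-19) in siNAE1, -1.26 ± 0.06 (adjusted p = 1.7e-17) in siUBE2M and -1.50 ± 0.07 (adjusted p = 8.0e-18) in siURM1. Over all alternatives they stayed between -1.44 and -1.40, between -1.30 and -1.22, and between -1.53 and -1.48 in the same order. Between the knockdowns the differences were small. XBP1 was higher in siUBE2M than in siURM1 by 0.25 ± 0.07 (edgeR, adjusted p = 0.0031), which was lost without siURM1 replicate 1 (0.22, adjusted p = 0.054, highest of a range from 5.3e-04). It was lower in siNAE1 than in siUBE2M by -0.16 ± 0.06 (edgeR, adjusted p = 0.025), which was lost without siNAE1 replicate 1 (adjusted p = 0.058), siNAE1 replicate 3 (adjusted p = 0.075) or siUBE2M replicate 3 (adjusted p = 0.12), over a range from 0.0091. Between siNAE1 and siURM1 the difference was 0.09 ± 0.07 (edgeR, adjusted p = 0.30). No other gene of the deposited table overlaps XBP1 or ERN1.

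**Figure D2:**
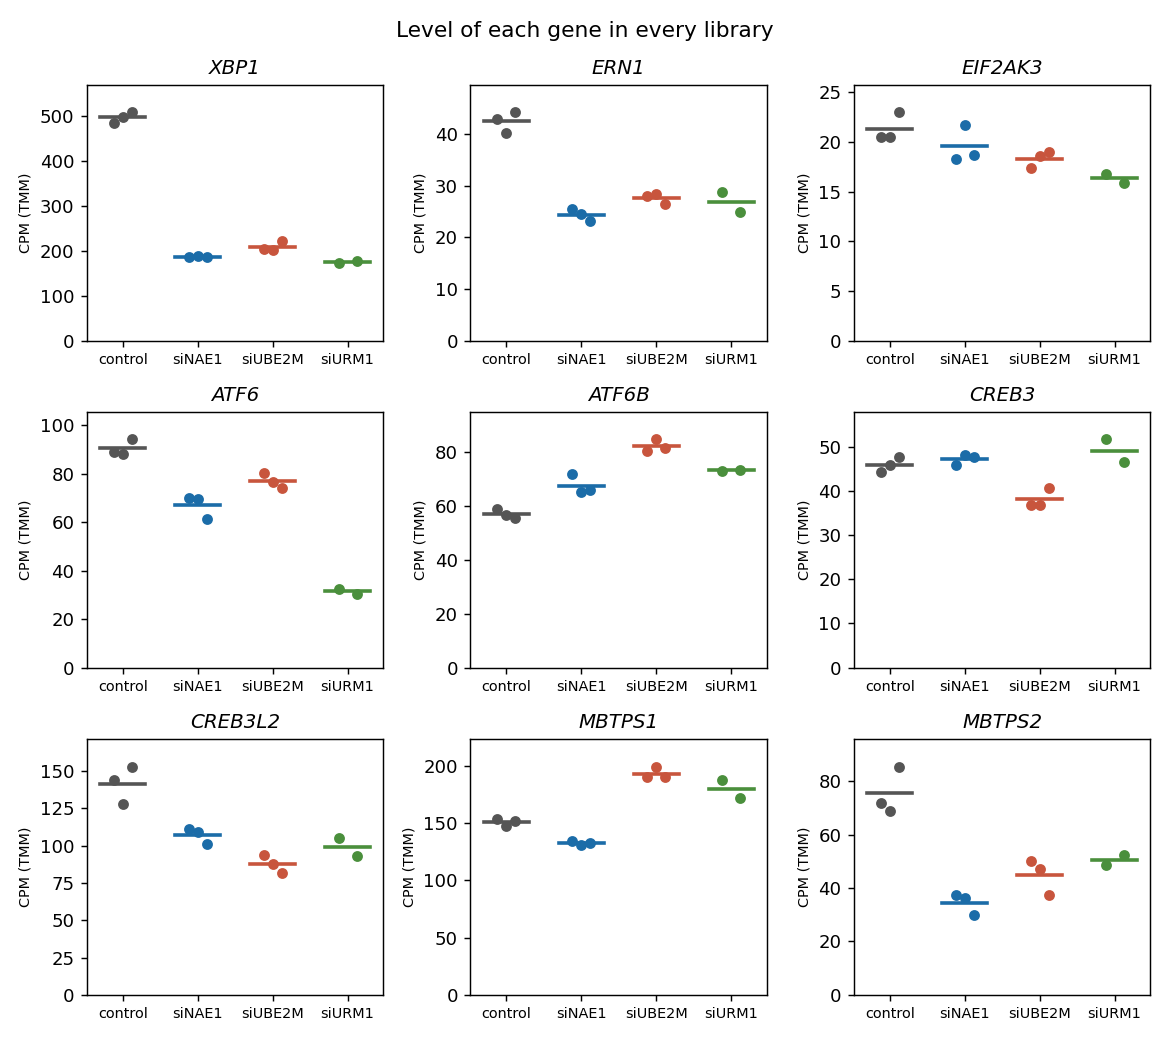
Level of each of the 9 genes in every library in CPM after TMM scaling, with a point per library and a line at the mean of each group (n = 3, and n = 2 for siURM1). XBP1 falls from 485 to 508 CPM in control to at most 221 CPM in any knockdown library, and ATF6 falls to 30.4 and 32.6 CPM in siURM1 alone.

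Counted together, in siNAE1 6 of the 9 genes fell and 1 rose, where 27.1% of all tested genes fell and 27.6% rose. Of these, XBP1 and MBTPS2 were DEGs that fell (2 of 9, where 8.61% of all tested genes were DEGs that fell and 5.30% DEGs that rose). In siUBE2M 6 of 9 fell and 2 rose, against 22.6% and 22.7% of all tested genes, and XBP1 was the only DEG (1 of 9, against 3.89% that fell and 3.22% that rose). In siURM1 6 of 9 fell and 2 rose, against 20.8% and 20.8%, and XBP1 and ATF6 were DEGs that fell (2 of 9, against 4.73% that fell and 2.89% that rose). None of the 9 was a DEG that rose. The median log2 fold change of the 9 was -0.41 in siNAE1, -0.27 in siUBE2M and -0.52 in siURM1, while that of all tested genes was 0.00, 0.01 and -0.02. These are descriptions of a chosen set, and the 3 comparisons share their controls.

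**Figure D3:**
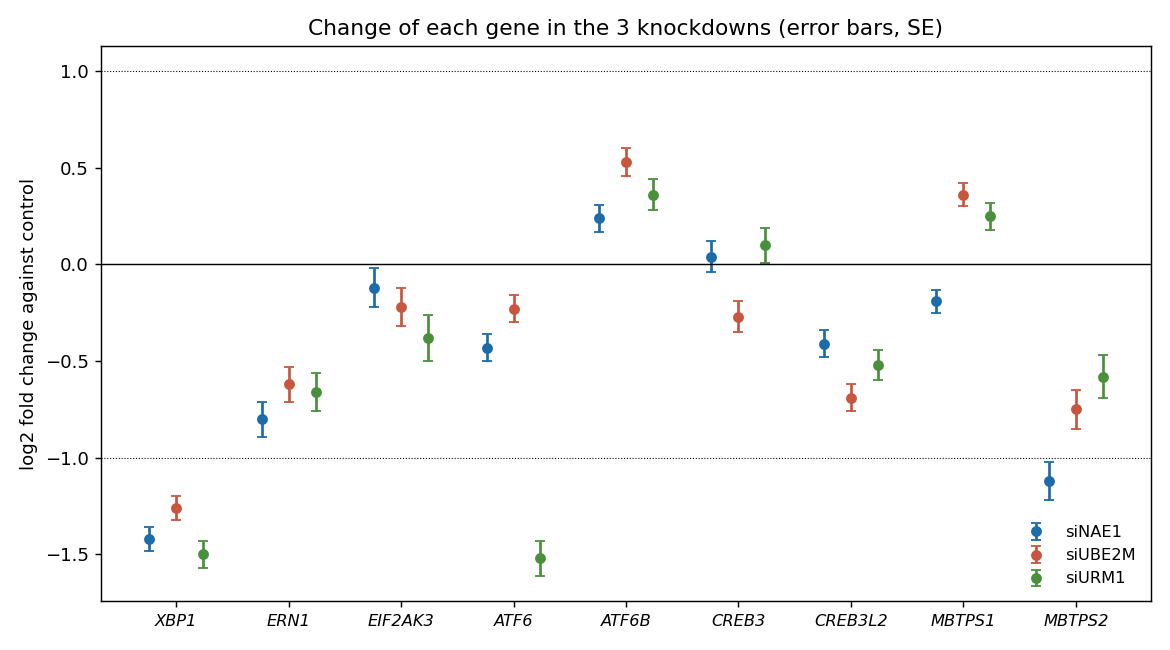
Log2 fold change of each of the 9 genes against control in the 3 knockdowns, with error bars of 1 SE and dotted lines at the fold change threshold of 1 in either direction. XBP1 lies under -1 in all 3, MBTPS2 only in siNAE1 (-1.12) and ATF6 only in siURM1 (-1.52), while ATF6B lies above 0 in all 3.

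The knockdowns were also compared with each other, without the control libraries. Between siNAE1 and siUBE2M, 7 of the 9 genes passed the adjusted p, where 44.3% of all tested genes did, but none passed the fold change as well, where 7.84% of all tested genes did. Between siNAE1 and siURM1, 3 of 9 passed (ATF6, MBTPS1 and MBTPS2), against 38.6%, and ATF6 also passed the fold change, against 6.76%. Between siUBE2M and siURM1, 3 of 9 passed (XBP1, ATF6 and CREB3), against 35.0%, and ATF6 also passed the fold change, against 5.41%. Without siURM1 replicate 1, ATF6 was the only gene of the 9 that passed the adjusted p between siUBE2M and siURM1.

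The partners and targets of these sensors were described from 6 lists, whose counts are read against the shares of all tested genes that passed the adjusted p: 27.6% higher and 27.1% lower in siNAE1, 22.7% and 22.6% in siUBE2M, and 20.8% and 20.8% in siURM1. Of the partners of IRE1, 10 of 11 were tested, and ERN2, the IRE1 of gut epithelium, had at most 5 counts in any library. In siNAE1 6 of these 10 rose and 1 fell (median log2 fold change 0.29). In siUBE2M 4 rose and 1 fell (median 0.16), and in siURM1 4 rose and 2 fell (median 0.17). TMBIM6, an ER membrane protein that restrains IRE1, rose in all 3 (0.56, 0.53 and 0.33 in the order siNAE1, siUBE2M and siURM1), as did the kinase MAP3K5 (0.65, 0.63 and 0.51). RTCB, the ligase that joins the cut XBP1 exons, rose in siNAE1 (0.30) and siURM1 (0.36) and had 0.14 in siUBE2M (edgeR, adjusted p = 0.087). Its partner in the ligase complex ZBTB8OS fell in siUBE2M (-0.53) and siURM1 (-0.40) and had -0.03 in siNAE1 (edgeR, adjusted p = 0.79). FAM98B of the same complex fell in siURM1 (-0.29). BLOC1S1, whose message IRE1 is known to cut, fell in siNAE1 (-0.58) and did not pass the test in siUBE2M (-0.05, adjusted p = 0.84) or siURM1 (0.18, adjusted p = 0.50).

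The list of the PERK arm also holds EIF2AK1, EIF2AK2 and EIF2AK4, the other kinases that phosphorylate the same translation factor, eIF2α. Of its 14 genes, 8 fell and 5 rose in siNAE1 (median -0.42), 6 fell and 4 rose in siUBE2M (median -0.10), and 8 fell and 3 rose in siURM1 (median -0.43). The genes that rose in siUBE2M and siURM1 were shares near the 22.7% and 20.8% of all tested genes, while in each knockdown those that fell were a larger share than the 27.1%, 22.6% and 20.8% of all tested genes. Those past the fold change all fell, 4 in siNAE1 and 3 in each of siUBE2M and siURM1, where 8.61%, 3.89% and 4.73% of all tested genes were DEGs that fell. CHAC1, a glutathione-degrading enzyme induced by ATF4, was past it in all 3 (-2.80, -1.17 and -1.26) and was named after its values were seen. Lowest by the mean over the knockdowns were TRIB3, a pseudokinase induced by ATF4, with -2.67, -2.57 and -2.14 in the same order, and the transcription factor ATF3 with -1.94, -1.70 and -1.91. DDIT3, which encodes CHOP, had -1.82, -0.91 and -0.75, all past the adjusted p. ATF4 itself rose in siNAE1 (0.67) and siUBE2M (0.65) and had 0.16 in siURM1 (edgeR, adjusted p = 0.051). ERO1A, an oxidase of the ER, rose in all 3 (0.24, 0.37 and 0.71). TRIB3 and ATF3 were known to be low when the list was made.

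Many ER chaperones and folding enzymes are among the known targets of ATF6 and XBP1s. Of the 25 genes of this list, 18 rose and 2 fell in siNAE1 (median 0.42), while 4 rose and 12 fell in siUBE2M (median -0.09), and 7 rose and 7 fell in siURM1 (median 0.01). The 4 that rose in siUBE2M were a smaller share than the 22.7% of all tested genes, and the 18 that rose in siNAE1 a larger share than the 27.6%. HSPA5, which encodes the chaperone BiP, was higher in siNAE1 than in siUBE2M by 0.90 ± 0.06 and higher than in siURM1 by 0.83 ± 0.06 (SE; edgeR, adjusted p = 4.4e-14 and 8.3e-12). HSP90B1, the ER member of the HSP90 family, was higher in siNAE1 by 0.65 ± 0.06 and 0.73 ± 0.07 (edgeR, adjusted p = 8.4e-11 and 1.7e-10). SDF2L1 rose in all 3 (0.98, 0.34 and 0.81). DNAJC10, a disulfide reductase of the ER, fell in all 3 (-0.63, -0.68 and -0.51), while SIL1, the nucleotide exchange factor of BiP, fell in siNAE1 (-0.61) and siUBE2M (-0.80). DNAJB9, a known target of XBP1s, fell in siUBE2M (-0.39) and did not pass the test in siNAE1 (0.15, adjusted p = 0.24) or siURM1 (0.07, adjusted p = 0.68).

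Of 24 genes of ER-associated degradation, 10 rose and 7 fell in siNAE1 (median 0.14), 6 rose and 8 fell in siUBE2M (median 0.01), and 5 rose and 6 fell in siURM1 (median -0.03). The 7 that fell in siNAE1, the 6 that rose in siUBE2M and the 5 that rose and 6 that fell in siURM1 were shares near those of all tested genes (27.1%, 22.7%, 20.8% and 20.8%). EDEM1, a known target of XBP1s that sorts misfolded glycoproteins, fell in siNAE1 (-0.58) and had 0.07 in siUBE2M (edgeR, adjusted p = 0.50) and 0.01 in siURM1 (adjusted p = 0.92). HERPUD1 fell in all 3 (-0.42, -0.41 and -0.21), as did the conjugating enzyme UBE2J1 (-0.76, -0.54 and -0.46). SEL1L, the partner of the ligase HRD1, fell in siNAE1 (-0.75) and siUBE2M (-0.38) and had -0.26 in siURM1 (edgeR, adjusted p = 0.054). VCP, the ATPase that extracts proteins from the ER, rose in all 3 (0.83, 0.32 and 0.42), and so did EDEM2 (0.31, 0.58 and 0.63). None of the 24 passed the fold change.

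Of 34 genes of translocation into the ER and transport to the Golgi, 16 rose and 10 fell in siNAE1 (median 0.11), 8 rose and 14 fell in siUBE2M (median 0.00), and 9 rose and 12 fell in siURM1 (median -0.07). SEC24D, a coat protein of the vesicles that leave the ER, was past the fold change in siNAE1 (1.03) and rose in siUBE2M (0.37) and siURM1 (0.47). SRPRB, a subunit of the receptor for the signal recognition particle, was past it in siUBE2M, where it fell (-1.17 ± 0.07, SE; edgeR, adjusted p = 2.3e-14), and was named after its value was seen. SEC63 fell in all 3 (-0.89, -0.33 and -0.75), and so did SRP19 (-0.34, -0.79 and -0.58). SSR2, a subunit of the translocon-associated complex, rose in all 3 (0.59, 0.57 and 0.52).

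Of the other CREB3 factors and site-1 protease substrates, 6 of 7 were tested, and CREB3L3, a factor of liver and gut, had at most 4 counts in any library. In siNAE1 2 rose and 2 fell (median 0.20), in siUBE2M 3 rose and 2 fell (median 0.02), and in siURM1 2 rose and 1 fell (median -0.03). GNPTAB, which encodes a lysosomal enzyme phosphotransferase that site-1 protease matures, rose in all 3 (0.70, 0.74 and 0.47). Of the sterol regulators that the same proteases release, SREBF1 fell in siNAE1 (-0.32) and siUBE2M (-0.36), while SREBF2 rose in siUBE2M (0.41) and siURM1 (0.56). CREB3L1 did not pass the test in any knockdown, with 0.40 in siNAE1 (edgeR, adjusted p = 0.056), -0.15 in siUBE2M (adjusted p = 0.53) and -0.46 in siURM1 (adjusted p = 0.073).

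**Figure D4:**
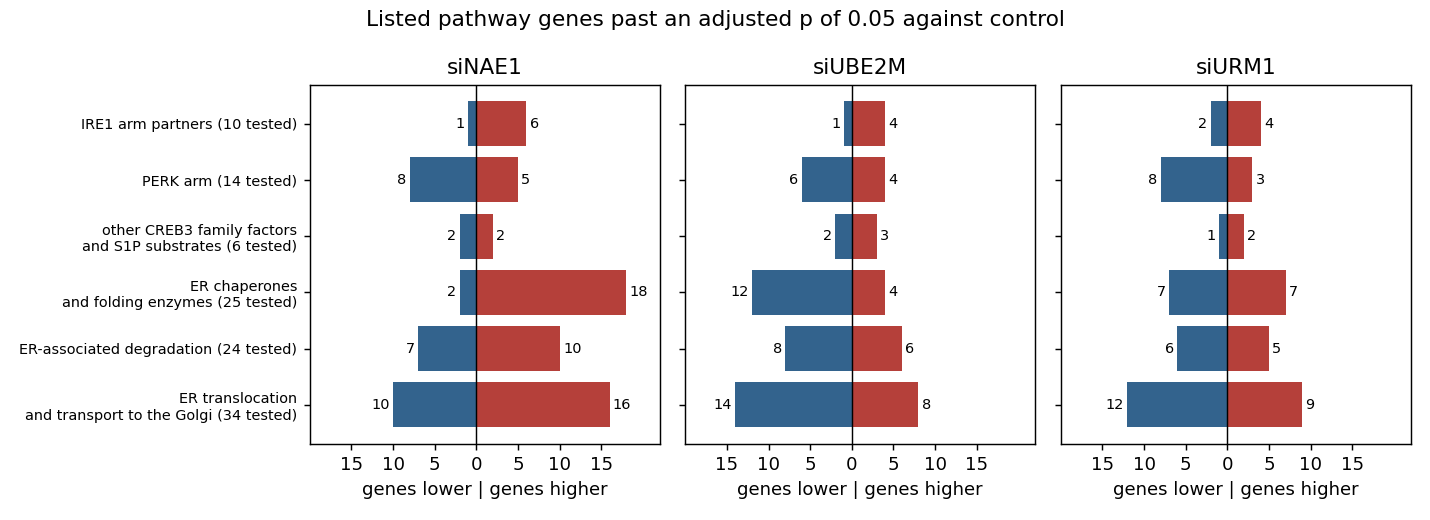
Number of tested genes of each of the 6 lists that were lower (left bars) or higher (right bars) than control at an adjusted p under 0.05, in the 3 knockdowns. Of the 25 ER chaperones and folding enzymes, 18 were higher in siNAE1, against 4 in siUBE2M and 7 in siURM1.

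The genes whose pattern was most like that of XBP1 were sought among 10467 tested genes whose mean was 10 CPM or more, by the root mean square difference in log2 CPM, centred on the control mean, over the 11 libraries. The 5 nearest were LINC00467 (0.098), PARP3 (0.124), HIRIP3 (0.127), ATP6V0E2-AS1 (0.155) and C12orf66 (0.156), where the median over the ranked genes was 1.22. The same 5 were nearest by the 4 group means. Their log2 fold changes ran from -1.59 to -1.27 in siNAE1, from -1.29 to -1.15 in siUBE2M and from -1.70 to -1.31 in siURM1. ATP6V0E2-AS1 is an antisense gene whose reads may not be separable from those of the gene opposite it. Of the other 8 genes described here, MBTPS2 (0.523, rank 248) and ERN1 (0.593, rank 379) were nearest to XBP1, and ATF6B was farthest (1.5, rank 8586).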

How the data were processed

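Messenger RNA of HEK293T cells was sequenced in 11 libraries of 4 groups. The authors used fastp to trim reads, HISAT2 2.0.5 to align them to GRCh38 and featureCounts 1.5.0-p3 to count fragments per gene. Raw counts per gene were deposited, together with FPKM values that the authors derived from them and from the listed gene lengths. The libraries were strand-specific. Neither the annotation release nor the use of strand in counting is given in the sources used here, so the counts of a gene and of one opposite it may not be separable. DESeq2 1.20.0 is also named in the submitters' processing notes. Every column of values belongs to 1 library.

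The analysis used edgeR 4.0.16 in R 4.3.3. After filterByExpr and TMM scaling, 18368 genes were fitted in a quasi-likelihood model of the 4 groups, and p-values were adjusted by Benjamini-Hochberg over these genes. DEGs were defined as in the study, by an adjusted p under 0.05 with a log2 fold change of 1 or more in either direction. Levels are counts scaled by TMM library size (CPM, mean ± SD) or the deposited FPKM. Total counts per library were 11733163 to 16321391, and the common biological coefficient of variation was 7.06%, with 4.94% to 7.84% for the 9 genes. The fit was tested on simulated data with known changes. Motifs were searched in RefSeq windows of GRCh38.p14. Python 3.11.15 with pandas 2.3.3 served for tables and matplotlib 3.10.9 for plots.

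The 9 genes and the 6 lists were chosen with earlier results of these data known. By rule the text names the 9 genes, the targeted genes, the 5 genes most like XBP1, and from each list the 2 highest and 2 lowest mean log2 fold changes, taking genes that averaged 10 CPM or more. By the same rule HSPA5, HSP90B1, DNAJB9, EDEM1, HERPUD1, ATF4, DDIT3, RTCB, BLOC1S1, ERN2, CREB3L1, CREB3L3 and CREB3L4 are named whatever their values. Overlapping genes, genes with an ERSE, CHAC1 and SRPRB were named outside the rule.

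Alternatives to the fit were DESeq2 1.42.0 (all groups, or the compared pair only), edgeR on the compared pair only, RLE scaling, no filter on low counts, a filter that asks for 10 counts in each library, the replicate number as a block, and glmTreat against a log2 fold change of 1. Each library was also left out in turn, FPKM was set against TMM-scaled counts per kilobase, and likeness was computed over group means. The other experiments of the study were not analysed here.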

Additional observations from a re-analysis of the deposited data

Results flagged for a closer look

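MBTPS1, the gene of the site-1 protease, changed in opposite directions in the knockdowns. It was lower than control in siNAE1 (132 ± 1.16 CPM against 151 ± 2.98 CPM, SD, n = 3 and 3) and higher in siUBE2M (193 ± 4.82 CPM, n = 3) and siURM1 (180 ± 10.1 CPM, n = 2). The differences themselves passed edgeR's test, with a log2 difference of -0.55 between siNAE1 and siUBE2M (adjusted p = 6.2e-09) and of -0.44 between siNAE1 and siURM1 (adjusted p = 2.7e-06). Over the alternatives the first ran from -0.56 to -0.53 and the second from -0.50 to -0.38, with highest adjusted p of 4.7e-07 and 6.7e-04. The groups have 2 or 3 libraries, too few for a test of single libraries that stand apart.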

How the results depend on the processing

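Of 972 recomputed log2 fold changes (54 differences of the 9 genes between groups, each under 18 alternatives), 958 kept their direction and their side of an adjusted p of 0.05, 12 kept their direction and lost the call, and 2 that passed no test changed sign. The last were CREB3 between siNAE1 and siURM1, -0.06 with all libraries and from -0.13 to 0.02 over the leave-one-out fits (0.02 without siURM1 replicate 1), and ERN1 between siUBE2M and siURM1, 0.04 with all libraries and from -0.06 to 0.15 (-0.06 without siURM1 replicate 2). When edgeR's glmTreat tested against a log2 fold change of 1, the genes of the 9 called in siNAE1 against control went from 2 to 1 (XBP1), and between siNAE1 and siURM1 from 1 to 0, since that test asks for a change larger than 1 and MBTPS2 (-1.12) and ATF6 (1.09) lie close to it. Over the leave-one-out fits, 1 to 3 of the 9 genes were past the adjusted p between siUBE2M and siURM1, with 1 (ATF6) without siURM1 replicate 1. With a replicate block, 7 of the 9 genes passed the adjusted p in siNAE1 against control, 8 in siUBE2M and 8 in siURM1, the counts without it, and it changed no call. Deviations of same-numbered libraries had correlations from -0.0657 to 0.0787 over 15 pairs, so the numbers were not taken to pair the samples. With 2 libraries of siURM1, leaving out 1 assumes that the other varies as the libraries of the other groups do. In part of the leave-one-out fits the library left out belonged to neither compared group. The 958 therefore include differences that could hardly change.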

Other observations

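CREB3L4, a membrane-bound factor of the CREB3 family that was not among the 9 genes, had 73 to 362 counts per library. It fell from 21.2 ± 0.893 CPM in control (SD, n = 3) to 7.25 ± 0.865 CPM in siNAE1 (n = 3), 14.0 ± 1.40 CPM in siUBE2M (n = 3) and 10.3 ± 0.0608 CPM in siURM1 (n = 2). The log2 fold changes were -1.54, -0.61 and -1.05 (edgeR, adjusted p = 5.4e-12, 5.9e-05 and 1.6e-07). Compared directly, CREB3L4 was lower in siNAE1 than in siUBE2M (-0.94 ± 0.13, SE; edgeR, adjusted p = 5.9e-07) and lower than in siURM1 (-0.50 ± 0.15, adjusted p = 0.0080), and it was higher in siUBE2M than in siURM1 (0.44 ± 0.14, adjusted p = 0.013).

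ATF4, the transcription factor downstream of PERK, was higher in siNAE1 than in siURM1 by 0.51 ± 0.07 and higher in siUBE2M than in siURM1 by 0.50 ± 0.07 (SE; edgeR, adjusted p = 2.0e-07 and 4.4e-07). Between siNAE1 and siUBE2M the difference was 0.02 ± 0.06 (adjusted p = 0.86).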
